A study of Mus musculus with 12 samples.

Results

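The YAP, TAZ and TEAD genes are 10 listed mouse genes that carry or control the nuclear output of the Hippo pathway: the coactivators Yap1 and Wwtr1 (which encodes TAZ), the DNA-binding partners Tead1, Tead2, Tead3 and Tead4, the regulators Amotl2, Lats1 and Lats2, and the target Ankrd1. They were taken by name, 10 of the 21938 protein-coding genes of the GENCODE mouse annotation, and every deposited peak in each gene body and the 20000 bp on each side was read (the window of the gene). These 10 windows, 1063 kb in all, held 36 of the 22555 distinct peak intervals of the series. The peaks come from chromatin immunoprecipitation sequencing of mesenchymal stem cells (MSCs) from wild-type C57BL6/N mice aged 3 to 5 months. The sample labels call them bone-marrow cells, whereas the methods of the study describe cells grown out of crushed tibia and femur and sorted as CD45-, TER-119-, CD140a+ and Sca-1+. All cells were first grown at low oxygen, and after sorting were held in hypoxia (2% oxygen) or moved to normoxia (21% oxygen). H3K27ac, an acetylation of histone H3 found at active promoters and enhancers, and H3K4me3, a methylation found mainly at promoters, were profiled beside input chromatin, in 12 libraries that form 6 groups of 2.

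The Hippo pathway is a kinase cascade that restrains growth and responds to cell contact, cell shape and stiffness of the surroundings. Its last kinases, LATS1 and LATS2, phosphorylate YAP and TAZ, which then stay in the cytoplasm. When the kinases are inactive, YAP and TAZ enter the nucleus and bind TEAD proteins, which hold the DNA at enhancers and promoters. In mesenchymal cells YAP and TAZ are known for their part in mechanical sensing and in the choice between bone and fat fates.

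Sequences are shown here because TEAD proteins bind a short DNA word, GGAATG or its reverse complement CATTCC, and several of these genes are themselves known YAP targets. Of the 10 genes, 8 matched 12 promoter entries of RefSeq on GRCm38.p6, the assembly behind mm10. In the 250 bases upstream of a RefSeq start, 5 of the 8 held the 6 TEAD letters on either strand (Yap1, Wwtr1, Amotl2, Tead3 and Ankrd1), beside 14.4% of all RefSeq genes and 12.6% of all entries. The 8 genes are few, were picked by name and include known YAP targets, and some have several entries. Their count is a description and was not tested against those shares. The 7 letters TGANTCA are bound by AP-1 factors that often sit beside TEAD. They were in none of the 12 entries of these 8 genes, beside 6.75% of all entries. So few entries cannot be told to differ from that share. The sites are printed on the strand of the gene, with the TEAD letters in capitals and 10 bases on each side. Of the 3 Tead3 matches only the exon-free site is printed, and the others lay in an exon, 123 and 114 bases upstream of another RefSeq start.
Yap1 (chr9:8004722-8004747, minus strand): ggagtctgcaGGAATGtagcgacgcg
Wwtr1 (chr3:57576031-57576056, minus strand): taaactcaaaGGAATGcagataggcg
Amotl2 (chr9:102717729-102717754, plus strand): gaaactctcaCATTCCtggcatagca
Tead3 (chr17:28350972-28350997, minus strand): cgacgagcgaGGAATGgggtgcgcgg
Ankrd1, farther site (chr19:36120039-36120064, minus strand): cactgccaaaGGAATGaccctctcac
Ankrd1, nearer site (chr19:36119952-36119977, minus strand): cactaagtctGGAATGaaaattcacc
The capitals began 141 bases upstream of the RefSeq start in Yap1, 136 in Wwtr1, 65 in Amotl2, 182 in the printed Tead3 site, and 210 and 123 in Ankrd1. The Amotl2 and Ankrd1 sites lay in an exon of another annotated transcript. The Wwtr1 promoter entry whose 250 bases overlap no annotated exon is given whole, with the TEAD letters in capitals. It lies under both marks at both oxygen levels.
Wwtr1 promoter (chr3:57575911-57576160, minus strand): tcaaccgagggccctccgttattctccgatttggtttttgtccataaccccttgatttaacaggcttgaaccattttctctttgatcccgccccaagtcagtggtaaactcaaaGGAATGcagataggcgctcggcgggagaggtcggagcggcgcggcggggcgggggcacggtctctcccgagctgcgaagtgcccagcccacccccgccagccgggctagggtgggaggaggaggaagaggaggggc
It held 18 CG dinucleotides and was 61.6% G and C. A match is a description of letters and not a bound site.

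Inside the H3K27ac peaks the letters could repeat over short distances. Cut into 300-base tiles, all H3K27ac peaks of the series held at least 1 match in 16.3% of tiles, at least 2 in 1.62% and at least 3 in 0.124%. The exon-free stretches with the most matches at Wwtr1, Tead1, Amotl2 and Ankrd1, picked for that number, are printed on the plus strand with the TEAD letters in capitals. Each printed stretch was placed to begin shortly before a match, unlike the tiles. The tile shares therefore do not tell how rare such a stretch is.
Wwtr1, upstream of the start (chr3:57576562-57576861): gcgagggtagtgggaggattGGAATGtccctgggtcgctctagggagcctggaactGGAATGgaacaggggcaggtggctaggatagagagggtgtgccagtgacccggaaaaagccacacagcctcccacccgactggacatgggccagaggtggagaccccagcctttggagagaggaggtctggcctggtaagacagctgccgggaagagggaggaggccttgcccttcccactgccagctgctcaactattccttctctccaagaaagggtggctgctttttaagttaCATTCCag
Tead1, intron (chr7:112780914-112781213): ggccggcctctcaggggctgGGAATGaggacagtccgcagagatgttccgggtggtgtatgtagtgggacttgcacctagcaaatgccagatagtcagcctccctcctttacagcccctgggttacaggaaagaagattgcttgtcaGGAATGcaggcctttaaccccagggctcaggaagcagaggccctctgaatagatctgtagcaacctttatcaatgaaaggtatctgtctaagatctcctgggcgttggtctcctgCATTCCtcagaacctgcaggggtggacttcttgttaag
Amotl2, downstream of the gene (chr9:102779622-102779921): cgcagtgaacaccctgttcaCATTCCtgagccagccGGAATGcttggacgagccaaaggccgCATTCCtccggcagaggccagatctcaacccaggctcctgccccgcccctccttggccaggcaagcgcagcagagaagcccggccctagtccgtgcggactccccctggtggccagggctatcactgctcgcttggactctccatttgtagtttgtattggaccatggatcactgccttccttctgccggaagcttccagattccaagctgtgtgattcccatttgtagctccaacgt
Ankrd1, upstream of the gene (chr19:36133965-36134264): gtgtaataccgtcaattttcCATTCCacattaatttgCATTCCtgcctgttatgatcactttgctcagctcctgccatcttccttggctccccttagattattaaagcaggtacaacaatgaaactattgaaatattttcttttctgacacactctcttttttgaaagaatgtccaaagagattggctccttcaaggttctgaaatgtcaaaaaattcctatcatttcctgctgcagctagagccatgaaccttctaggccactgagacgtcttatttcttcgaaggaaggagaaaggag
The first 3 held 3 matches each and the Ankrd1 stretch held 2. The Tead1 stretch lay 102 kb into the gene and the Amotl2 stretch 63.0 kb past the outermost coding start, the farthest upstream start of a coding transcript. The Amotl2 stretch lies outside the window of the gene, in a peak that begins inside the window and runs past it.

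The called marks at the 10 genes were nearly the same at both oxygen levels. The windows held 32 H3K27ac peaks in the hypoxia list and 31 in the normoxia list, of which 31 were in both. No intervals of the series overlapped in part, so a peak in both lists has the same bounds in each. Cover and width can therefore differ only where a whole interval is missing from a list. The H3K4me3 lists each held 15 peaks, and all 15 were shared, where 0.0411% of all H3K4me3 peaks were hypoxia-only and 0.0205% normoxia-only. A peak is called hypoxia-only when no base of it is in the normoxia list of the same mark. The share of hypoxia-only H3K27ac peaks was 3.13% (1 of 32, 95% Wilson interval 0.554 to 15.7%), beside 3.87% of all 15203 H3K27ac hypoxia peaks. No peak was normoxia-only, 0 of 31, which allows a share of up to 9.68%, beside 1.47% over the whole list. Each list pools both libraries of its group and holds no read counts, so neither sequencing depth nor replicate error can be given. No oxygen difference here has a replicate check, and the intervals cover counting error only.

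**Figure D1:**
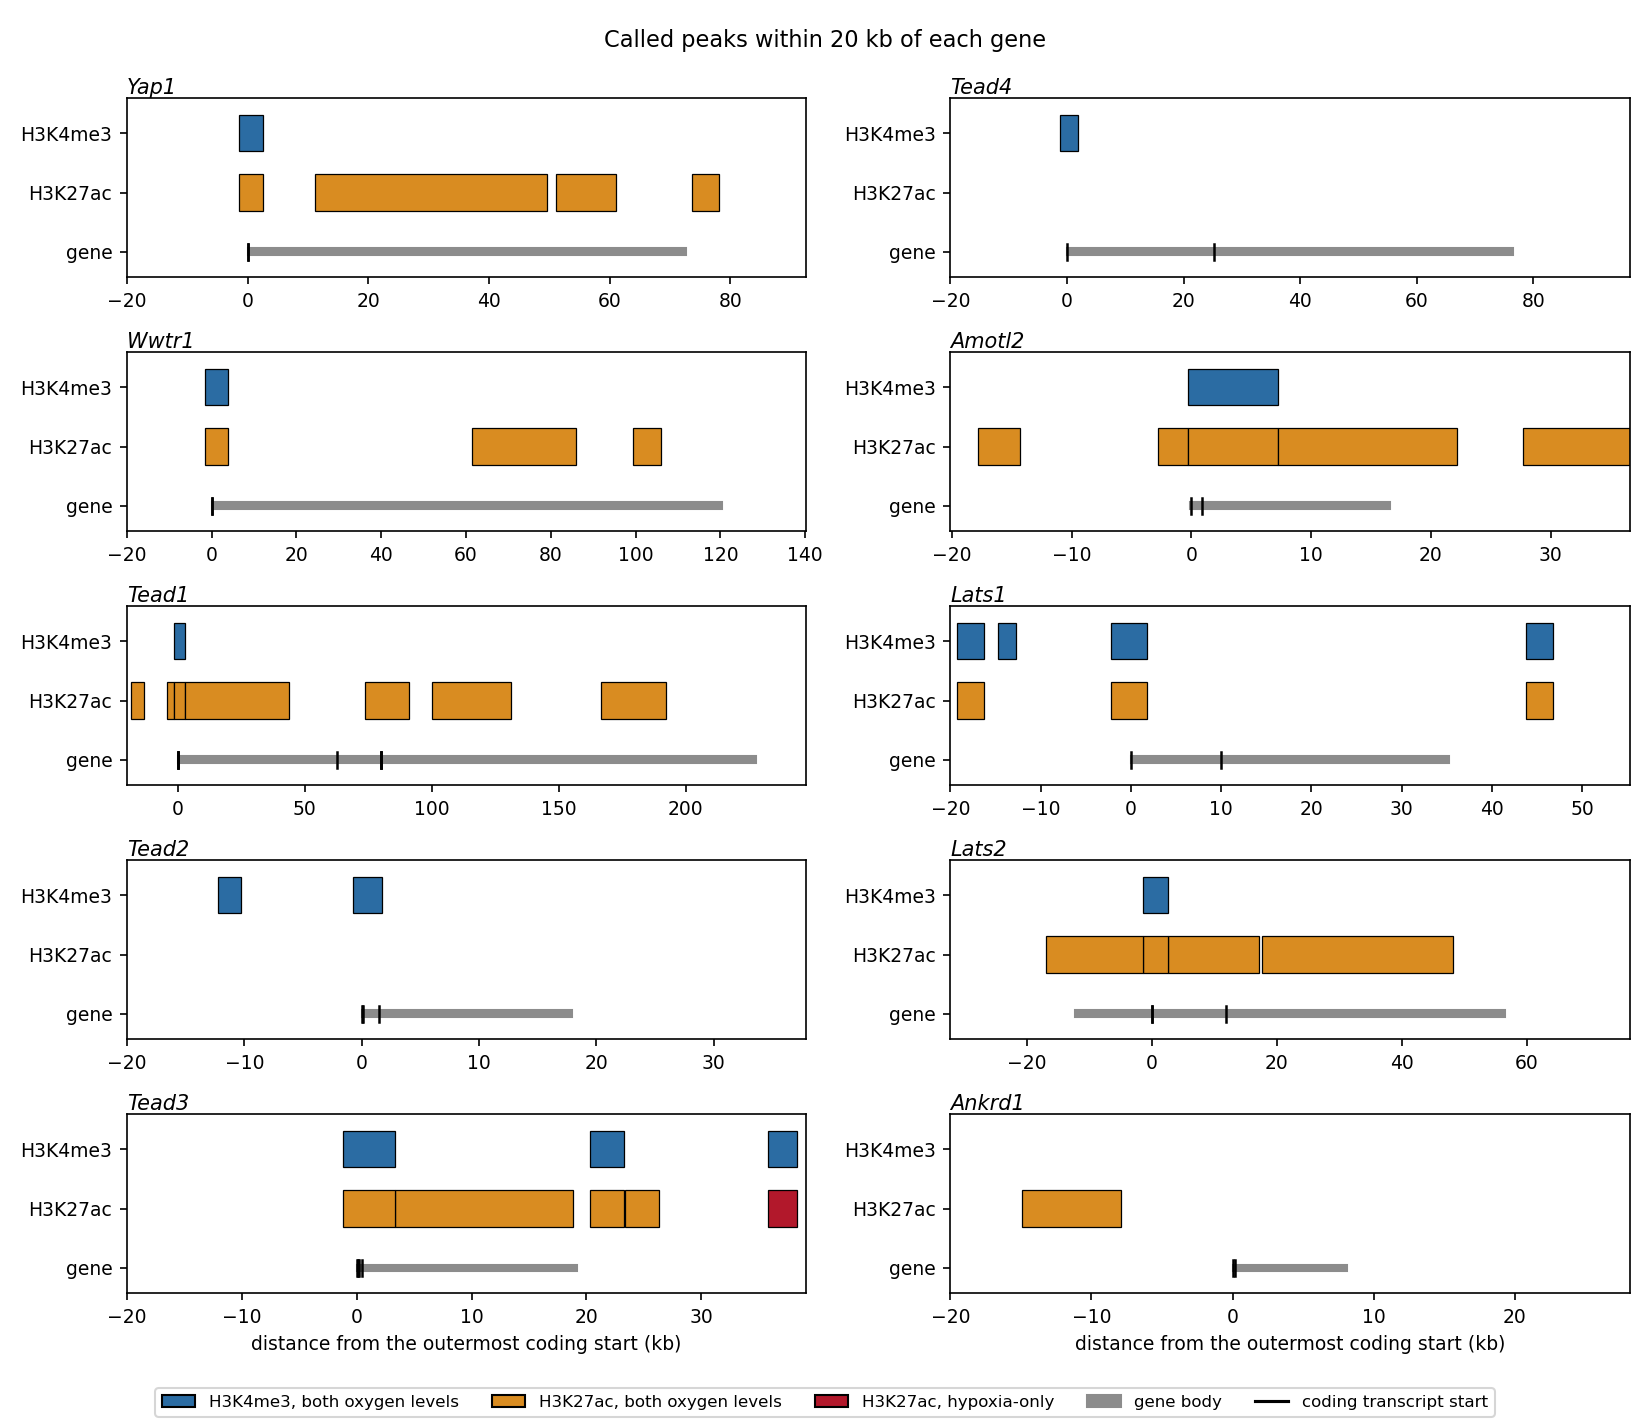
Peaks called at the 10 genes, drawn in the direction of transcription. The x axis gives the distance in kb from the outermost coding start, the rows give H3K4me3, H3K27ac and the gene body with its coding transcript starts as ticks, and each window ends 20 kb beyond the gene. Of the 32 H3K27ac peaks, 31 were called at both oxygen levels, and the hypoxia-only peak lies at the right edge of the Tead3 window.

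The coactivators carried both marks at their starts and wide H3K27ac peaks inside the gene. Yap1 (ENSMUSG00000053110.13, chromosome 9, 7931999 to 8004596, minus strand) had 4 H3K27ac peaks covering 57000 bp, or 50.6% of its window and 70.4% of its body, in each list. Its start lay under a 4000 bp peak of both marks (8002001 to 8006000). A 38500 bp H3K27ac peak without H3K4me3 (7955001 to 7993500) and a 10000 bp peak (7943501 to 7953500) followed within the gene, and a 4500 bp peak lay 998 bp past its end. The authors' score, a value per peak that was taken to rise with the confidence of the call, lay between 50 and 160 or was exactly 1000. The Yap1 start peak was at 1000 in both lists, the widest peak at 93 in hypoxia and 94 in normoxia, and the 10000 bp peak at 78 and 59. Wwtr1 (ENSMUSG00000027803.14, chromosome 3, 57455649 to 57575910, minus strand) had 3 H3K27ac peaks covering 36.5 kb, or 22.8% of its window, in each list. Its start peak (57572001 to 57577500) and a 24500 bp peak in the gene (57490001 to 57514500) were at 1000 in both lists, and a 6500 bp intron peak scored 116 and 113. Every interval of both coactivator genes was thus called at both 2% and 21% oxygen.

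The TEAD genes fell into unlike pairs. Tead1 and Tead3, which encode TEAD factors of broad expression, had both marks at a start, whereas Tead2 and Tead4, known from embryonic cells and from trophoblast and muscle, had H3K4me3 at a start and no H3K27ac peak anywhere in the window. Absence of any H3K27ac peak from the window was common in the series, at 45.0% of protein-coding genes, and H3K4me3 without H3K27ac at a start was found in 22.3%. In Tead2 (ENSMUSG00000030796.17, chromosome 7, 45215753 to 45233644, plus strand) the H3K4me3 start peak was 2500 bp wide with a score of 144 in both lists, and a further H3K4me3 peak lay over the start of the neighbour Ccdc155. In Tead4 (ENSMUSG00000030353.15, chromosome 6, 128224288 to 128300823, minus strand) the H3K4me3 peak was 3000 bp wide with a score of 132 in both lists. The inner coding start of Tead4, 25.2 kb into the gene, had neither mark.

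Tead1 (ENSMUSG00000055320.17, chromosome 7, 112679318 to 112906807, plus strand) held the longest H3K27ac sequence of the 10 genes, with 7 peaks covering 127 kb, or 47.5% of its window, in each list. The start region was a run of 3 touching H3K27ac intervals of 48.0 kb (112675001 to 112723000), of which the middle 4000 bp also carried H3K4me3. Its width was at the 99.0th percentile of all such runs in the hypoxia list. Farther inside lay H3K27ac peaks of 17500 bp, 31000 bp and 25500 bp without H3K4me3. The 17500 bp peak (112753001 to 112770500) covered 3 inner coding starts, 80.1 to 80.2 kb from the outermost start, which therefore carried H3K27ac alone, while an inner start at 62.7 kb had neither mark. Scores in hypoxia and normoxia were 69 and 51 for the 17500 bp peak, 69 and 63 for the 31000 bp peak, 107 and 122 for the 25500 bp peak and 99 and 114 for the 41000 bp part of the start run. The scores thus leaned to hypoxia at some Tead1 peaks and to normoxia at others.

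Tead3 (ENSMUSG00000002249.21, chromosome 17, 28331671 to 28350817, minus strand) was covered by H3K27ac over 98.3% of its body in both lists, by a start peak (28347501 to 28352000, score 129 in both) touching a 15500 bp peak (28332001 to 28347500, score 112 in hypoxia and 86 in normoxia). Its window was the only member window to differ between oxygen levels, with 48.2% under H3K27ac in hypoxia and 44.0% in normoxia. The difference was the hypoxia-only peak, 2500 bp on chromosome 17 from 28312501 to 28315000, with a score of 78 and a shared H3K4me3 peak on the same interval. It lay 16670 bp past the end of Tead3 and over the start of Fance, a DNA repair gene, and further peaks near Tead3 belonged to the start of Rpl10a, a ribosomal protein gene, and to the body of Fance. So 1 of 10 genes had a hypoxia-only peak in the window, beside 4.7% of protein-coding genes and 8.55% of those with an H3K27ac hypoxia peak there. None had a normoxia-only peak, beside 1.15% of all genes and 2.09% of those with an H3K27ac peak of either list, and 5.81% of all genes had either kind. With windows of 5000 bp, or with peaks given to the gene of the nearest start, no member had one.

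Among the regulators, H3K27ac cover was higher at Amotl2 and Lats2 than at Lats1. Amotl2 encodes an angiomotin that holds YAP at cell junctions, and it is also a known YAP target. Its gene (ENSMUSG00000032531.15, chromosome 9, 102716672 to 102733418, plus strand) lay wholly under H3K27ac in both lists, and 65.9% of its window was covered. A run of 3 touching intervals, 25000 bp long (102714001 to 102739000) took in the start and the whole gene, with H3K4me3 on the 7500 bp at the start. A further H3K27ac peak of 41500 bp (102744501 to 102786000) began 11082 bp downstream, overlapped no protein-coding gene and ran past the window. That peak was at 1000 in both lists. The 15000 bp interval over the end of the gene was at 1000 in hypoxia and 112 in normoxia, the widest score gap of the shared member peaks. No score lay between 160 and 1000, so this step gives no size of a difference. Among the H3K27ac peaks of chromosome 9 its percentile rank was 79.3 in hypoxia and 56.9 in normoxia. On that chromosome 41.4% of H3K27ac peaks were at 1000 in the hypoxia list and 35.8% in the normoxia list.

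Lats1 and Lats2 encode the kinases that phosphorylate YAP and TAZ, and Lats2 is also a known YAP target. Lats2 (ENSMUSG00000021959.16, chromosome 14, 57689662 to 57758388, minus strand) had 64.5 kb under H3K27ac in each list, or 59.3% of its window and 87.1% of its body. A run of 34.0 kb (57729001 to 57763000) took in the start and an inner coding start at 11.8 kb, which had H3K27ac alone, and a 30500 bp peak (57698001 to 57728500) followed. Of its 4 peaks, 3 were at 1000 in both lists and the fourth scored 98 and 94. The start is shared with the overlapping gene Gm49361, and peaks cannot be assigned between them. Lats1 (ENSMUSG00000040021.13, chromosome 10, 7681214 to 7716460, plus strand) had no H3K27ac in its body beyond the 4000 bp start peak (7679001 to 7683000, score 127 in both), which left 5.07% of the body covered. The other peaks of its window lay over the starts of the neighbours Pcmt1, Nup43 and Katna1.

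Ankrd1 encodes a nuclear ankyrin-repeat protein of muscle and stroma and is widely used as a readout of YAP activity. Ankrd1 (ENSMUSG00000024803.9, chromosome 19, 36111961 to 36120099, minus strand) was the member with neither mark at a start, as were 40.6% of protein-coding genes. Its only peak was 7000 bp of H3K27ac without H3K4me3, 7901 bp upstream (36128001 to 36135000), with scores of 106 in hypoxia and 107 in normoxia. The printed stretch with 2 TEAD matches lies in this peak, and the printed promoter sites lie under no peak.

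By gene, 9 of 10 members had H3K4me3 at a coding start in both lists (58.4% of protein-coding genes), 7 had H3K27ac (36.3%) and the same 7 had both (35.3%), counted per gene, so that the marks may lie at different starts. Of their 29 coding starts, 16 had both marks, 4 had H3K4me3 alone, 4 had H3K27ac alone and 5 had neither. Of the 32 H3K27ac intervals, 11 also carried H3K4me3 and 21 did not, and 4 intervals held H3K4me3 alone. At 6 of the 36 intervals the starts covered belonged only to genes that are no members.

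H3K27ac peaks took up a larger share of most of these windows than of the median gene's window. H3K27ac covered 34.6% of the windows in hypoxia and 34.4% in normoxia, and H3K4me3 covered 5.13% in each. In hypoxia the cover of a window fell in the order Amotl2 (65.9%), Lats2 (59.3%), Yap1 (50.6%), Tead3 (48.2%), Tead1 (47.5%), Wwtr1 (22.8%), Ankrd1 (14.5%) and Lats1 (13.3%), with none at Tead2 and Tead4. With 1 list per oxygen level no spread is known, so neighbours in this order cannot be told to differ. The median over the 10 members was 35.1%, beside a median of 2.56% over all protein-coding genes (quartiles 0 and 9.83%) and 9.72% over the 7755 genes with both marks at a start (quartiles 4.79 and 20.8%). The mesenchymal marker genes read below had a median of 34.5%, so high cover was not particular to the members. Amotl2, Lats2, Yap1, Tead3 and Tead1 lay between the 97.7th and 99.4th percentile of all genes, Wwtr1 at the 89.7th, and Ankrd1 and Lats1 at 82.3 and 80.6.

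**Figure D2:**
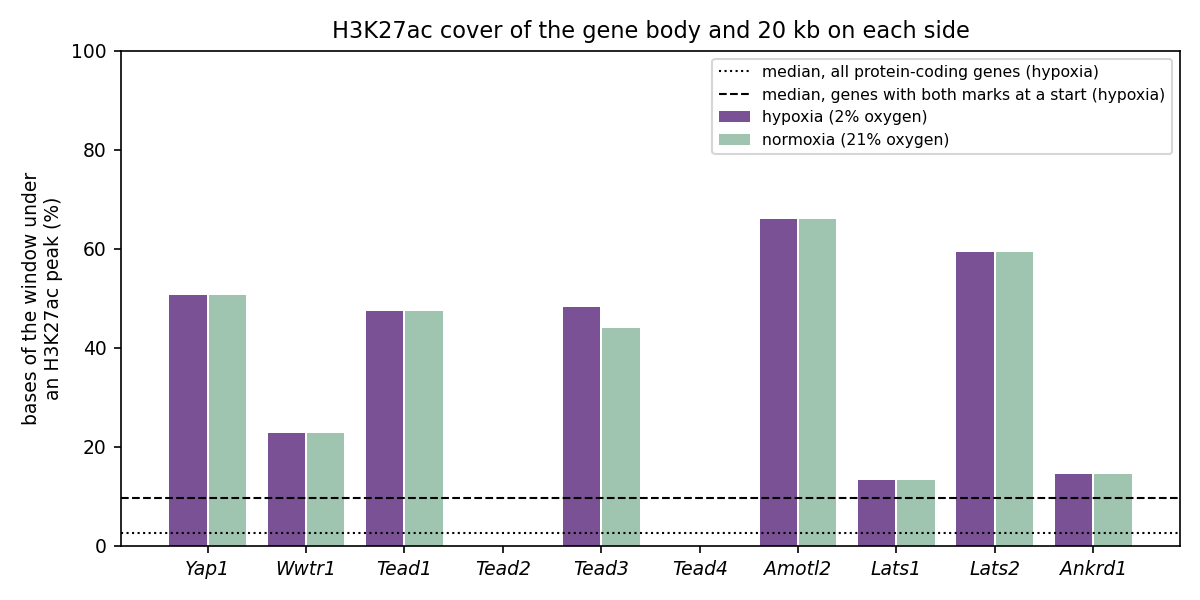
Share of each window under an H3K27ac peak. Bars give each gene's percentage in the hypoxia and normoxia lists, and lines give the hypoxia medians of all protein-coding genes (2.56%) and of those with both marks at a start (9.72%). The bars of each gene are equal at both oxygen levels except at Tead3 (48.2% and 44.0%), and Tead2 and Tead4 have none.

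The peaks themselves were wide. The median H3K27ac peak of the member windows was 6000 bp, against 3500 bp over the hypoxia list. A wide peak was taken as 17000 bp or more, the 95th percentile of the list, a limit set after the values were seen. There were 8 such peaks, at 5 of the 10 genes (Yap1, Wwtr1, Tead1, Amotl2 and Lats2). A wide peak was in the window of 4.62% of all protein-coding genes and 9.4% of genes with both marks at a start. Among the mesenchymal marker genes read below, 5 of 13 had one. Longer windows can meet more peaks, and window length was not matched in these shares. The wide Amotl2 peak lies mostly past its window. The 8 wide peaks were shared by both oxygen lists. An interval ends where the call of either mark changes, so the touching runs given above are longer than their parts.

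Scores at the 31 shared H3K27ac peaks were higher in hypoxia at 9, equal at 17 and higher in normoxia at 5, of which 10 were at 1000 in both lists and so counted as equal. Over all 14614 shared H3K27ac peaks, 39.9% were higher in hypoxia, 43.6% equal and 16.6% higher in normoxia. As percentile ranks within a list, hypoxia minus normoxia, the median was -1.67 points for the members (95% interval of the median -4.77 to -1.67) and -1.67 points for all shared peaks. That interval treats the 31 peaks as independent, although some touch, and covers no replicate error. This median equals the rank difference of any peak at 1000 in both lists. Without peaks at 1000 in either list it was -4.45 points for the 20 remaining member peaks and -2.07 points for all 11015, and with ranks taken within a chromosome -2.83 and -1.92 points. Ranks also shift at equal scores, since the median score was 111 in the hypoxia list and 102 in the normoxia list. The median difference of the scores themselves was 0. Levels of the score cannot be set side by side between chromosomes, because the share of H3K27ac hypoxia peaks at 1000 was 41.4% on chromosome 9, 41.5% on 7, 40.9% on 3 and 42.2% on 14, but 4.47% on 17, 4.35% on 19 and 0% on 10. The lower scores of Tead3, Ankrd1 and Lats1 therefore do not place them below Yap1, Amotl2, Tead1, Wwtr1 or Lats2. H3K4me3 scores were identical in both lists at all 14600 shared intervals of the series, so they hold no comparison of oxygen levels.

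**Figure D3:**
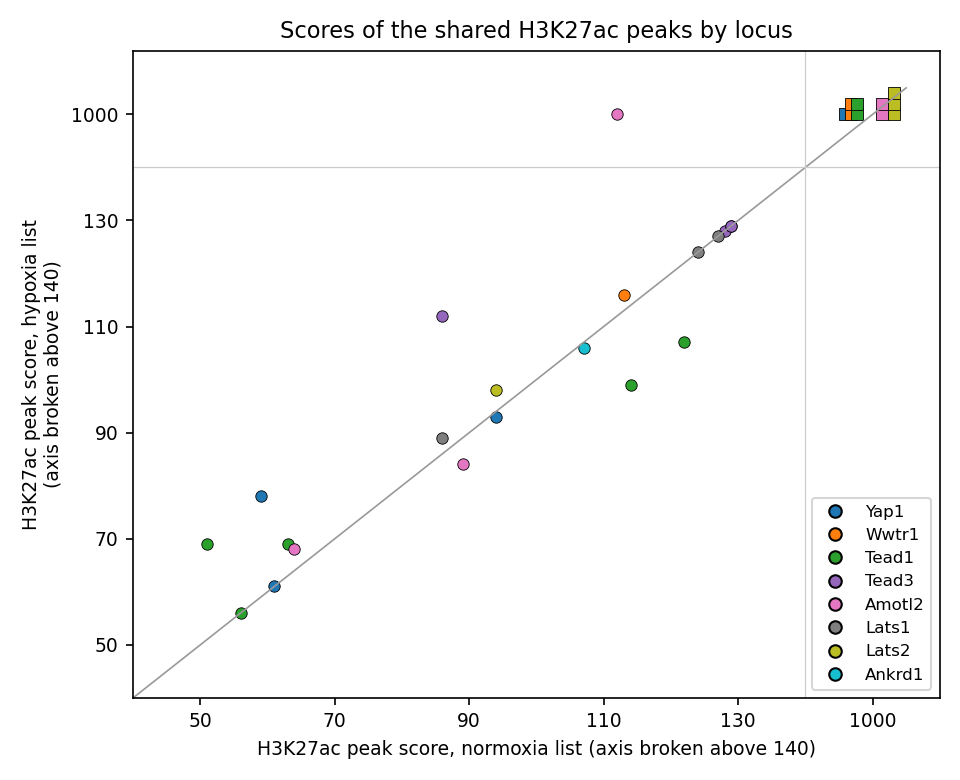
Scores of the 31 shared H3K27ac peaks, normoxia list on the x axis and hypoxia list on the y axis, with colours for the gene and a line of equality. Both axes are broken below 1000 and the 10 peaks at 1000 in both lists are squares spread apart for view. The Amotl2 peak at 1000 in hypoxia and 112 in normoxia stands farthest from the line.

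The density of the TEAD letters in the member H3K27ac peaks had an interval that takes in the density over all H3K27ac peaks. There were 238 matches, or 0.594 per kb (95% Wilson interval 0.523 to 0.675), beside 0.601 per kb over all H3K27ac peaks, and the AP-1 letters had 0.317 and 0.342 per kb. Of the 32 intervals, 26 held a TEAD match and 24 an AP-1 match. By locus the TEAD density was 0.914 per kb at Amotl2, 0.669 at Tead1, 0.589 at Lats2, 0.571 at Ankrd1, 0.386 at Tead3, 0.384 at Wwtr1, 0.368 at Yap1 and 0.1 at Lats1. The 41500 bp Amotl2 peak, most of which lies past the window, held 41 of the 64 matches at that locus. Matches were counted over whole peaks, whereas window cover counts only bases inside the window. Yap1 had more AP-1 than TEAD matches, 27 against 21, and Lats2 fewer, 10 against 38.

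The other Hippo pathway genes were read the same way. The 58 distinct genes of 3 lists comprised 24 kinases and upstream regulators, 16 partners that bind YAP, TAZ or TEAD and 20 reported YAP and TAZ targets, with some genes on more than 1 list. H3K4me3 lay at a start of 57 and H3K27ac at a start of 44. Both marks were at a start of 17 of 24 upstream genes, 13 of 16 partners and 15 of 20 targets. H3K4me3 alone was at Stk4, Wwc1, Map4k2, Tnik, Dchs1, Dchs2 and Fjx1 among the upstream genes, at Amot and Vgll2 among the partners, and at Axl, Fjx1, Nt5e, Foxf2 and Igfbp3 among the targets, and Vgll1 had neither. Over all genes with H3K4me3 at a start, 60.6% had H3K27ac there too. A wide H3K27ac peak lay in the window of 5 upstream genes, 6 partners and 10 targets. The median window cover was 11.8%, 16.9% and 24.5% in that order.

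In these lists 10 of 58 genes had a hypoxia-only H3K27ac peak in the window and 3 had a normoxia-only peak, beside 4.7% and 1.15% of all protein-coding genes, and 8.55% and 2.09% of genes with an H3K27ac peak in the window. Windows grow with the gene, and several of these genes are long. Among the kinases and upstream regulators, hypoxia-only peaks lay in introns of Stk3, which encodes the kinase MST2, and of Nf2, which encodes merlin, each with a score of 52. Those of the cadherin genes were in Fat4 (score 94, with H3K4me3), in an intron of Dchs2 (score 1000, 1000 bp wide) and 9989 bp past Dchs1, nearest to the start of Taf10 (score 106). The peak in the window of the kinase gene Taok3 covered the start of Pebp1 (score 72). Ywhaq, which encodes a 14-3-3 protein, had a hypoxia-only peak 7363 bp upstream (score 94). Among the targets, Arhgef17 had 1 (score 57), Rbms3 had 2 (scores 51 and 62) and Gadd45b had 1 (score 60).

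The normoxia-only peaks were at Mob1a, a cofactor of the LATS kinases, and at the targets Ccn2 and Thbs1, which encode secreted matricellular proteins. The Mob1a peak scored 59 and lay nearest to the start of Mthfd2. At Ccn2 (chromosome 10, 24595442 to 24598683, plus strand) the normoxia-only interval was the 2000 bp over the end of the gene (24597501 to 24599500, score 53), touching a shared start peak that scored 115 in hypoxia and 128 in normoxia. The Thbs1 peak was 16000 bp wide (chromosome 2, 118116501 to 118132500) with the lowest score of the list, 50. Ccn1, a further canonical target, had no condition-specific peak. Its start peak carried both marks at 1000 in both lists, a 32500 bp H3K27ac peak 12019 bp upstream was at 1000 in both lists, and 45.3% of its window was covered (97.4th percentile), against 7.07% at Ccn2 (68.9th percentile).

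**Figure D4:**
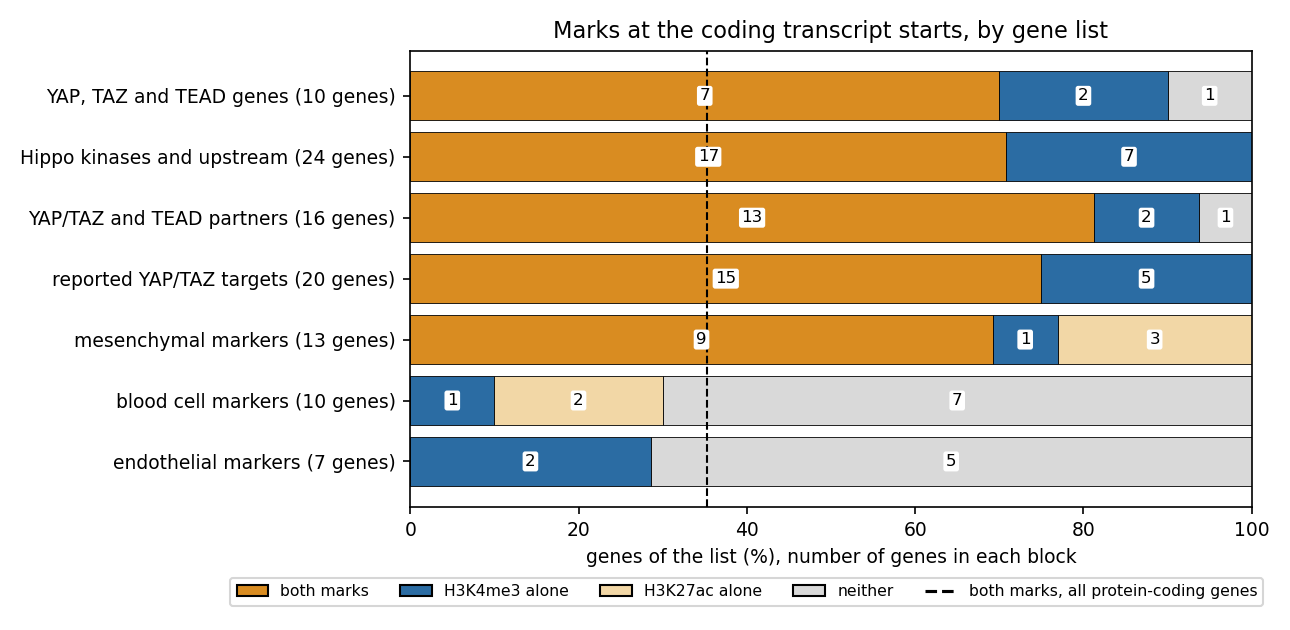
Marks at the coding starts of 7 gene lists, as a percentage of each list with the number of genes in the blocks. The dashed line gives the share of all protein-coding genes with both marks (35.3%), and both marks lie at 7 of 10 members, 9 of 13 mesenchymal markers and none of the blood or endothelial markers.

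The labelled cell type was checked on markers of MSCs and of other cells that the culture could hold. Both marks lay at a start of 9 of 13 mesenchymal genes, Pdgfra (CD140a, a sorting marker) among them. H3K27ac alone lay at the starts of Ly6a (Sca-1, the other sorting marker), Lum and Dcn, and H3K4me3 alone at Eng. At Thy1 the H3K27ac interval over the outermost starts was hypoxia-only, with a score of 55, and an inner start lay under a shared peak. Of 10 blood cell genes none had both marks, 7 had neither, Ptprc (CD45) among them, and Cd68 and Csf1r had H3K27ac alone. Of 7 endothelial genes none had both marks, 5 had neither, and Kdr and Erg had H3K4me3 alone. The part of other cells in the values above was not tested.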

How the data were processed

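According to the methods of the study, the authors aligned reads to mm10 (Bowtie2), dropped duplicates (Picard) and ran chromstaR in differential mode on both oxygen levels. They deposited 1 list per mark and oxygen level (4 lists), each from both libraries of its group, with a score per peak whose definition is not given in the sources used here. The lists hold neither counts nor input signal, so depth is unknown, and they do not give the results of the edgeR test. All boundaries were multiples of 500 bp and no intervals overlapped in part. Peaks were read with Python 3.11.15, pandas 2.3.3 and SciPy 1.17.1 against the GENCODE M21 basic annotation, with an overlap of at least 1 bp, and sequence was taken from GRCm38.p6. The scripts were tested on simulated data. All results are counts and shares, with no test between groups. All 10 members are named, with neighbours whose starts lie under their peaks, pathway genes with a condition-specific peak, Ccn1 and Ccn2. Members, lists and markers were chosen with earlier results of these data known. Alternatives changed the window, assignment, score filter, joining, start rule, rank scale and motif. The result of 1 marker gene is not reported here.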

Additional observations from a re-analysis of the deposited data

How the results depend on the processing

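With windows of 5000 bp on each side, or with peaks assigned to the nearest start, the hypoxia-only share was 0% and 0 members had a condition-specific peak, because the Fance peak lies outside those regions. Without the lowest-scoring 25% of each list, 2 members had one, Tead3 and Yap1 (2 of 27 peaks, 7.41%), since the Yap1 peak scoring 78 in hypoxia and 59 in normoxia then stayed in the hypoxia list alone. H3K27ac cover moved with the region read: 43.5% in each list with 5000 bp windows, 26.1% in hypoxia and 26.0% in normoxia with 50000 bp, and 29.0% and 27.8% without the lowest-scoring 25%. The difference of scores in place of ranks had a median of 0, and the rank difference was -4.45 points without peaks at 1000 and -2.83 within a chromosome, beside -1.67. The 7 letters GGAATGT gave 0.162 matches per kb, beside 0.160 in all H3K27ac peaks. In all, 13 values moved, and 43 kept their direction and stayed within the limits set for them. The share of 7.41% and the rank differences of -4.45 and -2.83 points are among the 43. The ranks within a chromosome were a choice made after seeing the data. No paired analysis was possible because each list pools both libraries of its group, and for the same reason no library could be left out. Without read counts, differences in the amount of a mark within shared peaks were not measured.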
